A study of Mus musculus with 12 samples.

Results

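In cultured KPC1199 cells, a murine pancreatic ductal adenocarcinoma line, 1725 of 25507 gene windows carried the marks of an active promoter with little of either Polycomb mark. These windows were chosen by their values in untreated cells: H3K4me3 and H3K27Ac at or above the 75th percentile of all windows, H3K27me3 below the 50th percentile and H2A119Ub below the 75th percentile. They made up 6.76% of all windows and 35.3% of the 4886 windows that passed both active-mark criteria. The other 3161 active windows held more of at least 1 Polycomb mark and serve as the comparison. CUT&Tag, in which an antibody brings a transposase to a histone mark so that the DNA around it is cut and tagged, was read for 4 marks in 3 states of these cells, which are of C57BL/6 strain. The states were untreated unselected cells (IFNγ-PD-L1all), unselected cells given 10 ng/ml IFN-gamma (IFNγ+PD-L1all), and IFN-gamma treated cells with high PD-L1 (IFNγ+PD-L1hi), also at 10 ng/ml. All 3 come from 1 line, and the labels give no time of treatment and no way in which PD-L1 high cells were taken. Each mark and state had 1 library, so differences could not be checked against replicate spread and p-values are left out.

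H3K4me3 is laid down at transcription start sites by the SET1 and MLL complexes, and H3K27Ac at active promoters and enhancers by the acetyltransferases p300 and CBP. H3K27me3 is written by Polycomb repressive complex 2 (PRC2) and H2A ubiquitination, called H2A119Ub in the labels, by Polycomb repressive complex 1 (PRC1), and both are known for silencing developmental genes. In pancreatic tumour cells, IFN-gamma signals through the kinases JAK1 and JAK2, induces the transcription factor IRF1, and raises antigen presentation and PD-L1, the ligand of the inhibitory receptor PD-1.

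A set of 6 promoters is printed, 5 because the results below return to their genes and Ppp4r3b as an example of the motifs, each 300 bases long, from 250 before to 50 after the RefSeq start site, on the gene's strand in build GRCm38.p6. Ankib1 (chr5:3803075-3803374, minus strand) and Nkx2-3 (chr19:43612075-43612374, plus strand) had the highest H3K4me3 among members with 1 promoter in the RefSeq table. Rpl7a (chr2:26910557-26910856, plus strand) lies head to head with Med22. Irf1 (chr11:53769764-53770063, plus strand, the upstream of 2 start sites 459 bp apart) and Ddit4 (chr10:59951721-59952020, minus strand) had the largest H3K4me3 ratios after IFN-gamma. Ppp4r3b (chr11:29172726-29173025, plus strand) holds letters of both the ETS and the YY1 motif. The last 3 were chosen after their values were seen. Capitals mark matches, on either strand, to the letters of a GC box (GGGCGG), the CCAAT box, or an ETS motif (CCGGAAG). They also mark the YY1 letters AAGATGGC and, in Irf1, the GAS element TTCNNNGAA, a class of site named for its response to IFN-gamma.
Ankib1: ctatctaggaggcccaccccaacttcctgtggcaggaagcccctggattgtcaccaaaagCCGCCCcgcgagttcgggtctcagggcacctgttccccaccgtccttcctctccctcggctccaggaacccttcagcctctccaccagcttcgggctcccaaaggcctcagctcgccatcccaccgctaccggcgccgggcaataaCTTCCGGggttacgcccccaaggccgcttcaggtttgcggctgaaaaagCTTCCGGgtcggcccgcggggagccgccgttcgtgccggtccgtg
Nkx2-3: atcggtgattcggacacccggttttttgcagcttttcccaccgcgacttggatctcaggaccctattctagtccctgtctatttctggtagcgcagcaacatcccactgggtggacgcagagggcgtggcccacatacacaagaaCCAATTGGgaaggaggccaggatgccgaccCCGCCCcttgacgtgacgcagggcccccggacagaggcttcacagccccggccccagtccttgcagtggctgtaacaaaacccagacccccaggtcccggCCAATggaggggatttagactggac
Rpl7a: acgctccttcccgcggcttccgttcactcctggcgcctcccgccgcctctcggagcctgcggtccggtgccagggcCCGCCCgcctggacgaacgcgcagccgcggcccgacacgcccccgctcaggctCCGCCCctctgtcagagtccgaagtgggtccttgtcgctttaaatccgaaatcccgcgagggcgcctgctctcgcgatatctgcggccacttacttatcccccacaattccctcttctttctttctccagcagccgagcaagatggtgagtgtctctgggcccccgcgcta
Irf1: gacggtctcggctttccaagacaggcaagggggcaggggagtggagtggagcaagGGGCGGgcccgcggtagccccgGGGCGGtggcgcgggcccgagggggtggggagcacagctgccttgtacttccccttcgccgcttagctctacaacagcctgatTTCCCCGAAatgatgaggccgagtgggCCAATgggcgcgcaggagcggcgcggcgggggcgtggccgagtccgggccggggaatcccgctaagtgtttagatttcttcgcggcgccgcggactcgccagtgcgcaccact
Ddit4: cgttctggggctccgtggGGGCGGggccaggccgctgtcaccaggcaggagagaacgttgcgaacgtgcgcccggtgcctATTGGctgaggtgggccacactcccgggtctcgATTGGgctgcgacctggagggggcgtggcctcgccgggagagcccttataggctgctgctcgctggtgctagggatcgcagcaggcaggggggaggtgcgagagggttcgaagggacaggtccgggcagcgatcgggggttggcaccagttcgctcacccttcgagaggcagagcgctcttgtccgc
Ppp4r3b: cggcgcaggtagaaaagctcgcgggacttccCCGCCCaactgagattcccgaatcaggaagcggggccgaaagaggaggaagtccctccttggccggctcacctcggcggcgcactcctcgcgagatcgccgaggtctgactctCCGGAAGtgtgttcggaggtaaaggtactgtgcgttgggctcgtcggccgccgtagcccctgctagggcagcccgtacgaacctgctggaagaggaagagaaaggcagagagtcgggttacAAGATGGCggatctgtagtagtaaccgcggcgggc
The Irf1 promoter held 2 GC boxes, 1 CCAAT box, 1 GAS match and 32 CpG dinucleotides. The Nkx2-3 promoter had 15 CpG dinucleotides, the lowest count of the 6, and 3 CCAAT matches. None of the 6 held the TATA letters TATAAA.

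The promoters of these genes held more CpG, ETS letters and GC boxes than promoters in general, and differed less from those of other active windows. Sequence was read for the 1094 members whose gene has exactly 1 promoter in the table. Their median ratio of observed to expected CpG was 0.86 (25th to 75th percentile 0.74 to 0.97), against 0.81 in 2000 promoters of active windows with more Polycomb mark and 0.55 in all 15965 promoters read. The ratio was at least 0.6 in 89.5% of members, 83.9% of the other active promoters and 46.4% of all promoters. Among the 646 promoters of active windows that passed the H3K27me3 cut alone it was 88.7%, close to the members. The G+C content had a median of 63.7% in members and 55.7% in all promoters.

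The ETS letters CCGGAAG, for a factor family that includes GABPA, stood in 24.5% of member promoters, 19.8% of other active promoters and 11.6% of all promoters. The YY1 letters AAGATGGC stood in 6.86%, 4.75% and 3.31% of the same sets. NRF1 letters (GCGCATGCG), bound by a regulator of mitochondrial genes, stood in 5.03%, 4.30% and 2.31%. Members did not lead the active windows that passed the H3K27me3 cut alone, where ETS letters stood in 23.7%, YY1 letters in 7.12% and NRF1 letters in 5.73%. The CCAAT box, read by NF-Y, went the other way among active promoters, with 37.8% of members against 45.6% of the others and 39.7% of all. GC boxes, read by SP factors, stood in 72.9% of members, 76.0% of other active promoters and 44.7% of all promoters, and TATAAA in 6.12%, 5.65% and 13.9%. CRE letters (TGACGTCA) stood in 3.29% of members and E-boxes (CACGTG) in 10.1%, against 3.5% and 11.1% of other active promoters and 2.32% and 7.95% of all promoters. GAS letters stood in 6.03% and the IRF letters GAAANNGAA in 6.95% of members, against 5.45% and 5.75% of other active promoters and 8.27% and 8.12% of all promoters. A match is a run of letters in 300 bases and does not show binding.

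**Figure D1:**
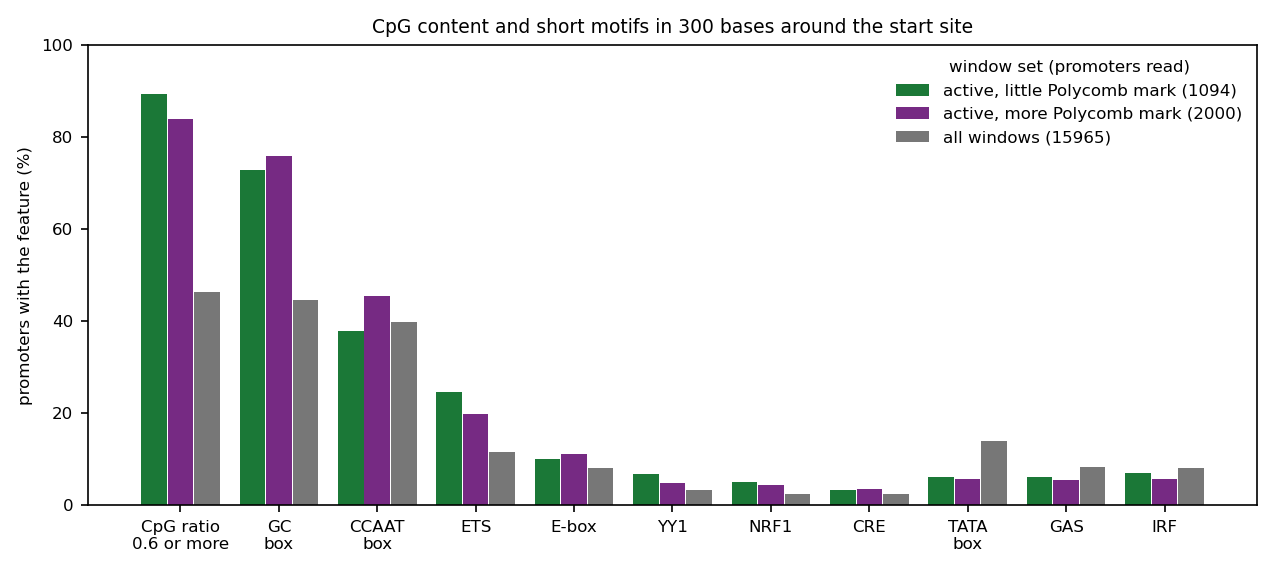
Bars give the percentage of promoters with a ratio of observed to expected CpG of 0.6 or more, and with each short motif, in 1094 members (green), 2000 promoters of active windows with more Polycomb mark (purple) and all 15965 promoters read (grey). ETS letters stood in 24.5% of members against 11.6% of all promoters, and CCAAT letters in 37.8% of members against 45.6% of the other active promoters.

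Splitting the members by these letters gave close medians for most letters and marks. The 268 members with ETS letters had a median H3K4me3 of 747 tags in untreated cells, and the 826 without had 741 tags. Median H3K27Ac was 154 tags with ETS letters and 168 tags without, and 185 tags in the 67 members with TATAAA and 163 without. For the 66 members with GAS letters, the median log2 H3K4me3 ratio of IFN-gamma over untreated cells was 0.08, the same as the 0.08 of the 1028 without. Members with IRF letters also had a median of 0.08. In H2A119Ub the same ratio was -0.12 with GAS letters and 0.07 without. In H3K27me3 it was 0.53 in the 110 members with E-boxes and 0.36 without, and 0.41 with GC boxes and 0.26 without. For PD-L1 high over IFN-gamma, the median H3K27me3 ratio was -0.82 in the 76 members with IRF letters and -0.65 without. These Polycomb gaps are among the wider of many splits. The median H3K27me3 ratio of IFN-gamma over untreated cells was 0.36 both with and without ETS, NRF1 or YY1 letters. These are descriptions of medians, with no test of the gaps.

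The genes were mostly protein coding, often long, and often shared a promoter region with a neighbour. RefSeq matched 1721 members, of which 1562 (90.8%, against 90.5% in other active windows) were protein coding and 115 (6.68%) lncRNA genes. The median length of the protein-coding genes was 27559 bp, against 15863 bp for active windows with more Polycomb mark and 17878 bp for all windows. Of 1395 members with a known start site, 472 (33.8%) had a start on the opposite strand within 1000 bp upstream, compared with 25.5% of other active windows and 13.03% of all. Active windows that passed the H3K27me3 cut alone were nearer to the members in both traits, with a median length of 22580 bp and 29.2% divergent. Both genes were members in 185 such divergent pairs, which took in 368 members. Med22, a Mediator subunit, and Rpl7a, a protein of the large ribosomal subunit, started 165 bp apart. Windows this close read nearly the same chromatin: Med22 had 1942, 2167 and 2133 H3K4me3 tags in untreated, IFN-gamma and PD-L1 high cells, and Rpl7a had 1941, 2158 and 2131. In all, 557 members lay within 3000 bp of another window's start.

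Levels are given as tags per window, the deposited signal times 6000 bp. This put nearly 1 unit on each counted tag, except in H2A119Ub with IFN-gamma, where it put 1.32. By the rule, members had to reach 468 tags of H3K4me3 and 117 tags of H3K27Ac and stay under 14.2 tags of H3K27me3 and 69.98 tags of H2A119Ub in untreated cells. Their median H3K4me3 was 734 tags in untreated, 912 in IFN-gamma and 962 in PD-L1 high cells. Median H3K27Ac was 164, 208 and 209.6 tags in the same order. Median H3K27me3 was 8.13, 12.2 and 6.04 tags, highest in the IFN-gamma library and lowest in the PD-L1 high library. Median H2A119Ub was 40.1, 50.1 and 38.9 tags, again highest with IFN-gamma, the library with the larger unit per tag. The H2A119Ub tags counted at members, before scaling, were 67948, 69169.5 and 68640.5 in the same order.

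The comparison windows had higher medians in all 12 libraries, also in the active marks, where the rule set no upper bound. Their medians were 851, 1037 and 1071 tags of H3K4me3 and 210.0, 259 and 244 tags of H3K27Ac. Their H3K27me3 medians of 22.4, 31.4 and 14.1 tags and H2A119Ub medians of 85.4, 107 and 83.8 tags followed the same order of states as in members. The members together held 19.1%, 19.97% and 20.1% of all H3K4me3 tags in gene windows, and 15.1%, 16.1% and 16.7% of the H3K27Ac tags. They held 0.834% of the H3K27me3 tags in untreated cells (95% Clopper-Pearson interval 0.820 to 0.848), 1.19% with IFN-gamma (1.17 to 1.20) and 0.513% in PD-L1 high cells (0.503 to 0.523). Their share of H2A119Ub tags was 5.26%, 5.83% and 4.95%. Intervals here and below cover counting error alone, since the reads carry no molecular identifiers and may count a fragment more than once. In bulk cells, a mark on fewer cells and less of it per cell cannot be told apart.

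**Figure D2:**
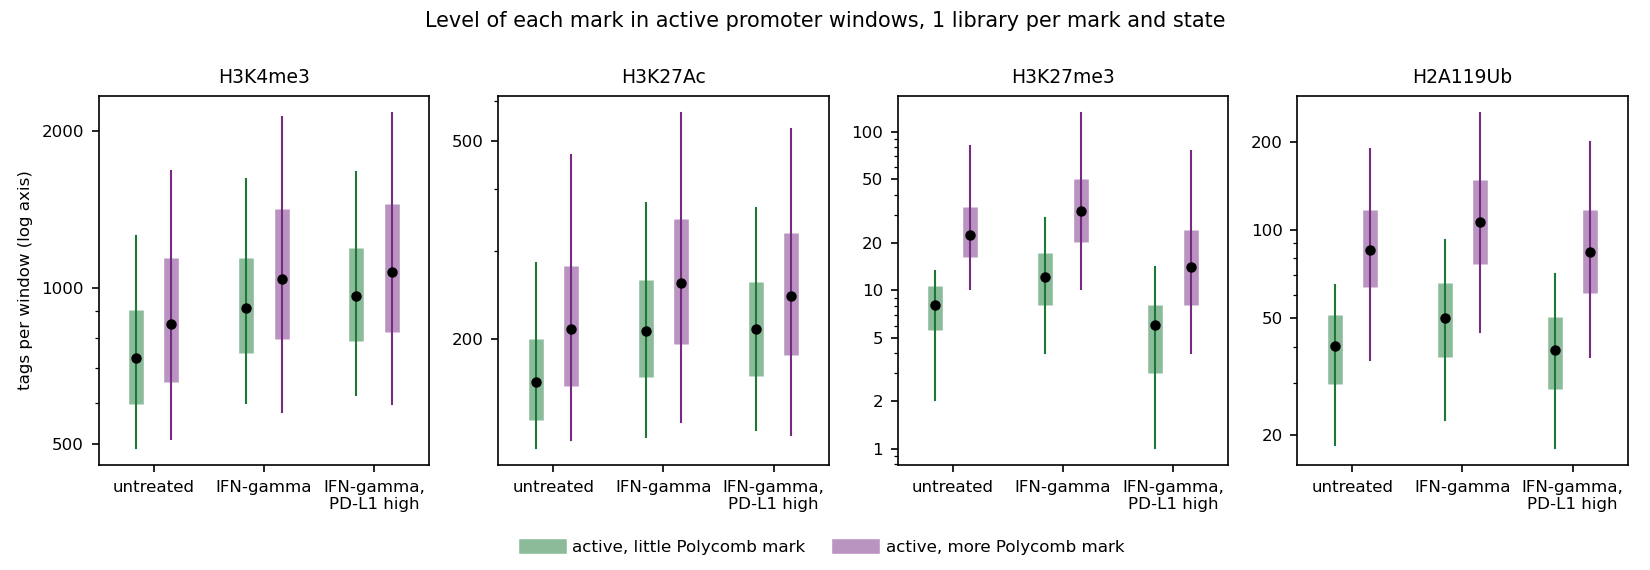
Tags per window (log axis) of each mark in the 3 cell states for the 1725 members (green) and the 3161 active windows with more Polycomb mark (purple). Black points are medians, thick bars the 25th to 75th and thin lines the 5th to 95th percentile. Member medians of H3K27me3 were 8.13, 12.2 and 6.04 tags in untreated, IFN-gamma and PD-L1 high cells.

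Near the cuts the sets run into each other. Eldr and Fbxo48, which share a window on chromosome 11, were just inside at 468 H3K4me3 tags, and Mapk3 and Rad21 just outside at 467. Cfdp1 and Dync1h1 were inside at 117 H3K27Ac tags, and Abcc5 and Atg2b outside at 116. At the H3K27me3 edge, where values come in steps of 0.5 tags, Cse1l and Cstf1 were inside at 13.7 tags and Acap2 and Acsl5 outside at 14.2. At the H2A119Ub edge Adcy6 and Ccdc85b had 69.5 tags, and Ccnd1 and Csad 69.98.

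The highest H3K4me3 among members stood at Rpl7, a protein of the large ribosomal subunit, with 2562, 2990 and 3131 tags in untreated, IFN-gamma and PD-L1 high cells. Ankib1, an E3 ubiquitin ligase, followed with 2458, 3268 and 3604 tags, and Krit1, a vascular junction protein whose window it shares, was within 1 tag of it in each state. Both lay in a run of 21 windows from Cdk6 to Steap1 on chromosome 5 in which 14 windows were active and 3 were members. Fam133b was the third, with 1372, 1518 and 1728 tags. Nkx2-3, a homeobox factor of gut mesoderm and spleen, had 2133, 2729 and 2781 H3K4me3 tags and 402, 343 and 358 H3K27Ac tags. It was higher in H3K4me3 and lower in H3K27Ac in both treated states.

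Some lists of the cell's basal machinery held more members than active windows did in general, and others held as many or fewer. The gene lists used here were chosen with earlier results of these data known, and each share is set against 6.76% of all windows and 35.3% of active windows. Membership follows from the untreated values and is not tested. Of 16 heat shock chaperones 10 were members, 71.4% of those active, and of 8 subunits of the chaperonin CCT 4 were, 66.7% of those active. Of 84 cytosolic ribosomal proteins 23 were members, 53.5% of those active, though related pseudogenes can take reads from these genes. Mediator gave 8 of 30 windows, coat and secretory traffic 7 of 23, aminoacyl-tRNA synthetases 5 of 20 and translation initiation factors 13 of 52, or 72.7%, 63.6%, 55.6% and 52.0% of the active windows in these lists. The 10 mitochondrial ribosomal proteins of 77, 9 respiratory chain and ATP synthase genes of 73, and 2 constitutive proteasome genes of 35 made up 34.5%, 32.1% and 22.2% of the active windows in their lists. RNA polymerase II and general factors gave 8 members of 38, 44.4% of those active. Spliceosome genes (7 of 39), ubiquitin-conjugating enzymes (5 of 31), cell cycle genes (6 of 36) and DNA replication genes (5 of 40) stood at 36.8%, 35.7%, 35.3% and 29.4% of active windows, near or below the general share.

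**Figure D3:**
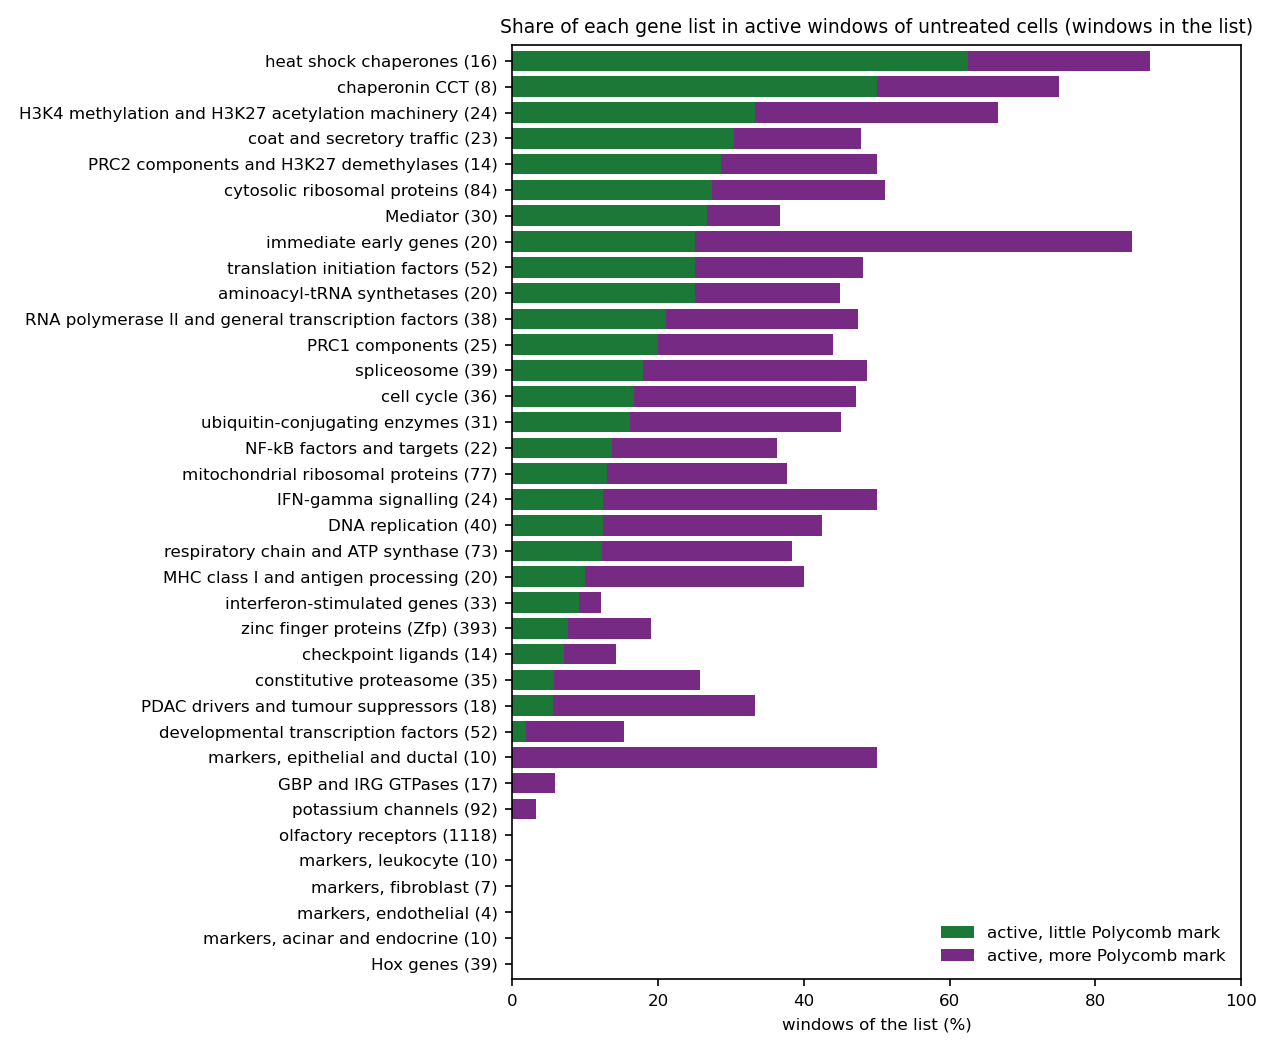
Percentage of the windows in each gene list (number of windows in parentheses) that were members (green) or active with more Polycomb mark (purple) in untreated cells. Members made up 62.5% of heat shock chaperones and 0 of 39 Hox genes.

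Among chaperones, Hspa5, the folding chaperone of the endoplasmic reticulum, had 1665, 2081 and 1985 H3K4me3 tags in untreated, IFN-gamma and PD-L1 high cells. The mitochondrial partners Hspd1 and Hspe1 share a divergent promoter and had 1204 tags each in untreated cells, then 1455 each with IFN-gamma. Tcp1, a CCT subunit, likewise read the same chromatin as Mrpl18, with 1363 and 1365 H3K4me3 tags. Median H3K4me3 of the 10 heat shock members was 713, 916 and 992 tags.

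Writers of the active marks were themselves members. Of 24 genes of H3K4 methylation and H3K27 acetylation 8 were members, including Ep300, the acetyltransferase p300, Setd1b and Kmt2c, catalytic subunits of H3K4 methyltransferases, and Wdr5, a shared subunit. Ep300 had 1193, 1473 and 1563 H3K4me3 tags and just 1.02, 8.10 and 6.04 H3K27me3 tags. Polycomb-related genes were members too. They were Eed, Jarid2, Rbbp4 and Aebp2 of 14 PRC2 and demethylase genes, 28.6% of the list and 57.1% of those active. Of 25 genes listed with PRC1, Asxl1, Phc3, Yaf2, Usp16 and Cbx7 were members, 20% of the list and 45.5% of those active. Asxl1 and Usp16 are not PRC1 subunits and belong to the removal of H2A ubiquitin. Eed, a core PRC2 subunit, had 654, 792 and 851 H3K4me3 tags and 6.60, 8.10 and 2.01 H3K27me3 tags. Zinc finger genes named Zfp gave 30 members of 393, 7.63% of the list and 40% of those active. These shares were near the 6.76% of all windows and 35.3% of active windows. For the genes of H3K4 methylation and H3K27 acetylation they were 33.3% and 50%.

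Few or none of the listed genes of cell identity and of silenced families were members. None of 39 Hox genes, 1118 olfactory receptors, 92 potassium channels or 17 GBP and IRG GTPases was a member. None of the marker genes was a member either: 5 of 10 epithelial and ductal markers, among them Krt8 and Krt19, were active with more H2A119Ub, and no marker of leukocytes (10), fibroblasts (7), endothelium (4) or acinar and endocrine cells (10) was active. Members were 6.76% of all windows, so lists as short as those of the markers and GTPases would hold few members or none. Their counts are not read as absence. Of the PDAC drivers, Tgfbr2 was the 1 member of 18 (5.56% of the list), near the share of all windows. Trp53 and Myc were active with more Polycomb mark, and Smad4 did not reach both active cuts.

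A few immune genes were members. Members included Irf1, Irf2 and Jak2 of 24 IFN-gamma signalling genes, Canx and Psmb10 of 20 genes for MHC class I and antigen processing, and Dtx3l, Parp9 and Trim25 of 33 interferon-stimulated genes. These were 12.5%, 10% and 9.09% of their lists, against 6.76% of all windows. Among the active windows of these lists they were 25%, 25% and 75%, against 35.3% in general. Cd47, a ligand that restrains phagocytosis, was the 1 member of 14 checkpoint ligands (7.14%), and 50% of those active. Cd274, which encodes PD-L1, had 229, 650 and 786 H3K4me3 tags and was not active in untreated cells, and neither were Tap1, Psmb8 and Nlrc5. Ifngr1, Ifngr2 and B2m were active with more Polycomb mark. Fos, Ier3, Klf4, Klf6 and Zfp36 of 20 immediate early genes, and Chuk, Nfkb1 and Nfkbib of 22 NF-kB genes, were members. They made up 25% and 13.6% of these lists, and 29.4% and 37.5% of the active windows in them.

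Members were spread unevenly over chromosomes. The X chromosome had 1102 windows, of which 6 were active and 4 were members, among them Hcfc1. On chromosomes 11, 15 and 19 respectively 35.4%, 31.2% and 35.5% of windows were active, against 6.63% on chromosome 13. The share of active windows that were members ran the other way, at 22.7% on chromosome 11 and 21.5% on 15, but 71.9% on 13, 68.5% on 18, 63.2% on 14 and 60.1% on 4. These shares moved with the level of the marks outside active promoters. In windows below the median H3K4me3, the median H2A119Ub of a chromosome correlated with its share of active windows (Spearman correlation 0.82, n = 20 chromosomes) and with the share of active windows that were members (-0.67). For H3K27Ac in the same windows the values were 0.82 and -0.62. The rule set its cuts over all chromosomes together, on these same untreated H2A119Ub and H3K27Ac libraries. The sign of these correlations is thus in part built into the choice. The points share libraries and depth, and the correlations are a description from which nothing is read. The number of DNA copies of each chromosome was not measured here, and its part in these shares was not tested.

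**Figure D4:**
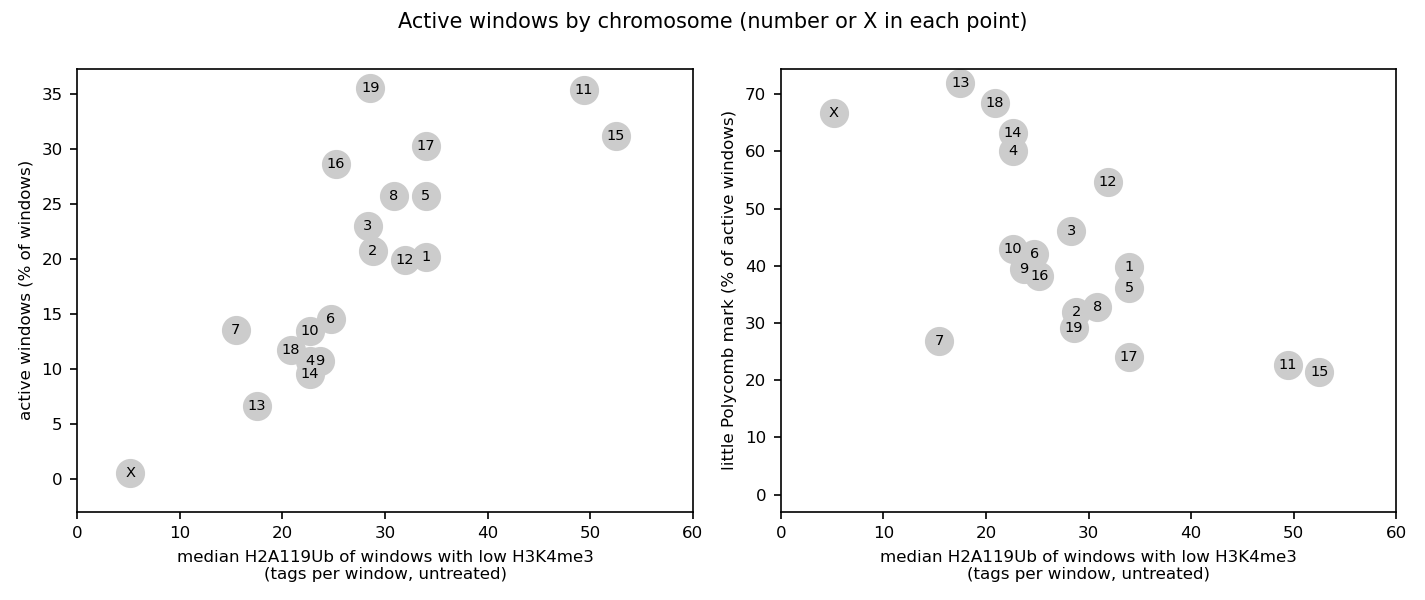
Each point is a chromosome (number or X inside). The horizontal axis is the median H2A119Ub, in tags per window of untreated cells, over windows with H3K4me3 below the median. The left panel gives active windows as a percentage of windows, the right panel members as a percentage of active windows: chromosomes 11 and 15 stand at the right with 22.7% and 21.5%, and the X chromosome rests on 6 active windows.

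A choice of members by percentiles within each chromosome, made after these values were seen, gave 1893 windows. Of these, 1132 were among the 1725, which is 65.6% of the members and 59.8% of the new set. The new set had 34.2% divergent promoters, CpG ratios of at least 0.6 in 87.4%, ETS letters in 23.8% and a median protein-coding gene length of 25450 bp. Irf1 was not among the windows chosen in this way.

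The next values set IFN-gamma against untreated cells. Since untreated values chose the members, they are a description and nothing is read from them. Ratios are log2 values with a small constant added and centred on the median of windows above the level filter, so that 0 means the typical change of better-filled windows. The members' median H3K4me3 ratio of IFN-gamma over untreated cells was 0.08 and that of H3K27Ac 0.07 (comparison windows 0.06 and 0.03), and without centring 0.32 and 0.30. At least 2-fold changes were met by 1 of 1725 members upward and 0 downward in H3K4me3, where 0.804% of all windows were higher and 16.6% lower. Of windows that passed the level filter, as all members did, 0.361% were higher and 1.03% lower. In H3K27Ac 0 members were 2-fold higher and 0 lower, with 0.49% and 7.46% of all windows and 0.251% and 0.643% above the filter. No member changed 2-fold in both active marks, while 17 of all windows were higher and 683 lower in both.

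The 1 member past 2-fold was Irf1, the transcription factor induced by IFN-gamma. Its H3K4me3 was 611 tags in untreated cells, 1537 with IFN-gamma and 1519 in PD-L1 high cells. Both treated states stood far above the untreated library, with a centred log2 ratio of 1.10 (95% interval from tag counts 0.96 to 1.24). H3K27Ac at Irf1 went from 230.3 to 326 and 325 tags, a log2 ratio of 0.25 (0.01 to 0.51). Its H3K27me3 was 7.11, 16.2 and 15.1 tags and its H2A119Ub 27.8, 30.3 and 36.3 tags. Ddit4, an inhibitor of mTORC1 signalling, came next with 572, 1172 and 973 H3K4me3 tags and a log2 ratio of 0.80 (0.66 to 0.95). Bhlhe40, a circadian and hypoxia-responsive repressor, had 807, 1532 and 1334 tags.

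The lowest H3K4me3 ratios belonged to replication-dependent histone genes on chromosome 13. H2bc7 had 525, 358 and 409 H3K4me3 tags and H2ac7, in the same stretch, 481, 336 and 385. H1f5, a linker histone, had 529, 393 and 500.1 tags, with a log2 ratio of -0.66 (-0.85 to -0.47). All 3 were lowest with IFN-gamma, the library whose low values picked them, so nothing is read from the higher values in PD-L1 high cells. The counting interval of PD-L1 high over IFN-gamma took in 0 at H2bc7 (log2 0.12, -0.09 to 0.33) and H2ac7 (0.12, -0.09 to 0.34). At H1f5 it did not (0.27, 0.08 to 0.47). Histone genes are near-copies of each other, and reads may be split between them.

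Of the 5 immediate early members, 0 were 2-fold higher in H3K4me3 and 0 in H3K27Ac, with median log2 ratios of 0.23 and -0.04. Zfp36, an mRNA decay factor, had 819, 1523 and 1409 H3K4me3 tags (log2 ratio 0.66, 0.54 to 0.79), and Ier3 had 881, 1492 and 1546 (0.53, 0.41 to 0.65). None of the 3 members among interferon-stimulated genes passed 2-fold in either active mark, and of the 3 in IFN-gamma signalling Irf1 alone did. Parp9 and Dtx3l, partners in interferon signalling that share 1 promoter, had 638, 970 and 1159 and 628, 951 and 1148 tags. Both were highest in the PD-L1 high library. Jak2, the kinase bound to the IFN-gamma receptor, had 126, 224 and 279 H3K27Ac tags and 873, 1131 and 1240 H3K4me3 tags. Cd47 had 207, 326 and 389.8 H3K27Ac tags. In H3K27Ac the largest ratios were at Tmf1, a Golgi protein, with 122, 283 and 317 tags, and Wdr89 with 160, 368 and 290.1 tags, both at log2 0.94. The lowest was at Pxn, the focal adhesion protein paxillin, with 204, 138 and 162 tags (log2 -0.79, -1.13 to -0.48).

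In the same comparison, the median H3K27me3 ratio of members was 0.36 (comparison windows 0.22), with 352 members at least 2-fold higher and 64 lower, where 5.18% of all windows were higher and 12% lower. The counting interval lay beyond 0 for 267 and 16 of these. Members were chosen for low untreated H3K27me3, so a rise from these values is in part built into the choice, and nothing is read from the counts. Members held few tags of this mark, and 311 of 1725 passed its level filter. Ist1, of the ESCRT machinery, had 3.05, 41.5 and 17.1 H3K27me3 tags, and Zfp277 had 1.02, 17.2 and 5.03. Slc39a1, a zinc importer, had 0, 12.7 and 4.02, and the 95% Poisson interval of the 0 reaches 3.75 tags. All 3 were lowest in untreated and highest in IFN-gamma cells, the 2 libraries whose ratio picked them. The lowest ratios were at Tbc1d22a with 12.2, 2.53 and 6.04 tags, Atg13 with 13.2, 3.04 and 2.01, and Nit1 with 10.2, 2.03 and 3.02.

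For H2A119Ub, 15 members were at least 2-fold higher and 16 lower after IFN-gamma, where 0.427% and 2.86% of all windows were, and the median was 0.08. This split depended on scaling: it became 65 higher and 2 lower without centring and 35 and 4 after quantile normalization. The IFN-gamma library of this mark had a tag value of 1.32, against 0.99 to 1.03 in the other 11 libraries, and 954 members passed the level filter. Ube3a, the E3 ligase lost in Angelman syndrome, had 6.17, 52.7 and 28.6 tags, Npepps 16.5, 60.6 and 29.7, and Pparg 29.8, 97.5 and 57.3. The lowest ratios were at Ankle2 with 39.1, 13.2 and 26.6 tags, Notch2 with 41.2, 15.8 and 38.9 and Scnm1 with 48.4, 21.1 and 26.1. In each of these 6 members the PD-L1 high value lay between the other 2. Since they were picked for extreme ratios of those 2 libraries, nothing is read from this.

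The comparison of PD-L1 high with unselected IFN-gamma cells uses no value that chose the members. In it, the active marks of the members stayed close: the median log2 ratio was -0.0029 for H3K4me3 and 0.05 for H3K27Ac. Among members, 0 were 2-fold higher and 0 lower in H3K4me3, against 2.01% and 5.92% of all windows and 0.00784% and 0.0784% above the level filter. In H3K27Ac 0 were higher and 0 lower, against 2.11% and 1.52% of all windows and 0.0784% and 0.196% above the filter. Shares above the filter were near 0 for windows in general, so a count of 0 does not set the members apart. Comparison windows had medians of -0.04 and -0.03. H3K27Ac was above the centre in 59.5% of members, 43.5% of comparison windows and 52.6% of all windows. Among active windows that passed the H3K27me3 cut alone it was 57.0%, close to the members. Without centring the members' median H3K27Ac ratio was 0.0078.

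The largest single ratios were these. Eif4enif1, which carries the cap-binding factor into the nucleus, had the highest H3K4me3 ratio with 619, 701 and 944 tags in untreated, IFN-gamma and PD-L1 high cells (log2 0.35, 0.21 to 0.50). Myg1, a mitochondrial and nuclear exonuclease, had the lowest with 955, 1109 and 899 tags (log2 -0.38, -0.50 to -0.25). In H3K27Ac the highest ratio was at Mettl4, a methyltransferase, with 139, 125 and 213 tags (log2 0.80, 0.49 to 1.15). Rps18, of the small ribosomal subunit, had 169, 130 and 213 tags, again high in PD-L1 high cells and low with IFN-gamma. The 3 lowest were Ehmt2, Smarca4 and Zfp777. Ehmt2, an H3K9 methyltransferase, had 222, 246 and 156 H3K27Ac tags (log2 -0.60, -0.91 to -0.32), and Smarca4, the BRG1 remodeller, 178, 236 and 157 (log2 -0.53, -0.84 to -0.24). Zfp777 had 132, 159 and 94.7 tags.

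H3K27me3 at the members was lower in PD-L1 high cells. The median log2 ratio was -0.65, with 562 members (32.6%) at least 2-fold lower and 26 (1.51%) higher, where 15.6% of all windows were lower and 3.89% higher. The counting interval lay below 0 for 400 of the 562 and above 0 for 5 of the 26. Active windows with more Polycomb mark had a median of -0.75 and 1032 of 3161 (32.6%) 2-fold lower, so the decrease was not particular to the members. The centre itself was -0.26 on the log2 scale, and without centring the members' median was -0.91. After quantile normalization it was -0.25, with 54 higher and 253 lower. Both comparisons use the same IFN-gamma library, and a window that is high in it alone goes up in the first and down in the second. Set against untreated cells, whose values chose the members, the median in PD-L1 high cells was -0.21 in members and -0.18 in all windows.

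Dnajc16, a J-domain protein, had 11.2, 42.0 and 1.01 H3K27me3 tags, and Ran, the GTPase of nuclear transport, 13.2, 29.4 and 1.01. Clcn3, a chloride transporter, had 11.2, 16.7 and 0 tags. All 3 were lowest in PD-L1 high cells, where the upper limit of the 95% Poisson interval was 5.60 tags for Dnajc16 and Ran and 3.71 tags for Clcn3. They were picked for their low ratios of PD-L1 high over IFN-gamma cells, so nothing is read from these low values. The highest ratios rested on few tags, as at Rpl4 and its neighbour Zwilch with 5.08, 1.01 and 7.04 tags each, and at Tmf1 with 4.06, 1.01 and 7.04. The counts by list are read against the 32.6% of all members that were 2-fold lower and their median of -0.65. By list, 6 of 10 heat shock members were 2-fold lower and 0 higher, with a median of -1.09, and 10 of 23 ribosomal members were lower and 1 higher, with a median of -0.66. Of 8 Mediator members 4 were lower, of 9 respiratory chain members 5, of 30 Zfp members 5, and of 6 cell cycle members 0. Lists of this size rest on few windows, and no list was tested against the other members.

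H2A119Ub moved less between these states. The members' median ratio was -0.19 and that of comparison windows -0.17, with 2 members 2-fold higher and 17 lower, where 1.93% of all windows were higher and 0.518% lower. The members' 17 are 0.986%. Among the lowest, H2ac10, a replication-dependent histone gene, had 63.8, 101 and 32.7 tags, and Arhgap12, a GTPase-activating protein, 47.3, 72.5 and 19.4. The 2 higher members were Phf13, a reader of H3K4me3, with 42.2, 21.1 and 59.3 tags and Notch2, a Notch receptor, with 41.2, 15.8 and 38.9.

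**Figure D5:**
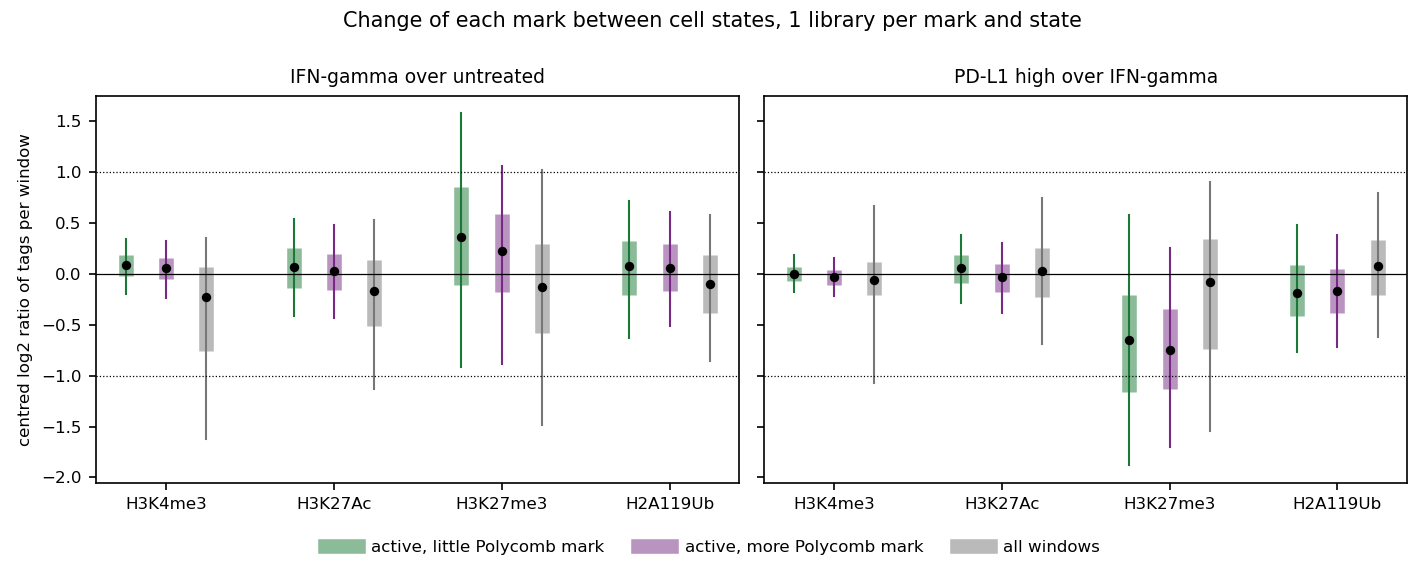
Centred log2 ratios of tags per window for each mark, IFN-gamma over untreated cells on the left and PD-L1 high over IFN-gamma cells on the right, in members (green), active windows with more Polycomb mark (purple) and all windows (grey). Points are medians, thick bars the 25th to 75th and thin lines the 5th to 95th percentile, and dotted lines mark a 2-fold change. On the right, H3K27me3 medians were -0.65 in members, -0.75 in comparison windows and -0.08 in all windows.

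When the same percentiles were applied in the treated states, most members stayed active and most stayed below the H2A119Ub cut, while fewer stayed below the H3K27me3 cut, whose low untreated values chose them. With IFN-gamma 1386 windows (5.43%) met the rule, 874 of them members (50.7% of members and 63.1% of the 1386). In PD-L1 high cells 1983 windows (7.77%) met it, 1132 of them members (65.6% of members and 57.1% of the 1983). Both active criteria were met by 88.7% of members with IFN-gamma and by 90.5% in PD-L1 high cells, against 19.9% and 19.8% of all windows. H3K27me3 reached the cut in 38.1% and 24.3% of members, and H2A119Ub in 10.4% and 3.88%. In comparison windows these were 86.6% and 74.4% for H3K27me3, and 69.3% and 61.6% for H2A119Ub. All 3 states were met by 717 members (41.6%), and neither treated state by 436 (25.3%). A further 415 met the rule in PD-L1 high cells and not with IFN-gamma, and 157 the reverse. The cuts are percentiles of each library, so the rule is relative to that library.

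Within the members, H3K4me3 and H3K27Ac varied together to some degree. Across the 1725 members the Spearman correlation of the 2 levels was 0.35 in untreated, 0.45 in IFN-gamma and 0.44 in PD-L1 high cells, a description over windows that share 2 libraries and were cut on both marks. H3K27me3 and H2A119Ub correlated at 0.32, 0.37 and 0.29. The 431 members with the most untreated H3K4me3 (907 tags and up) had a median H3K27Ac of 195, 253 and 249.1 tags, against 146, 189 and 191 in the 432 with the least (597 tags and under). Their H3K27me3 medians were 9.14, 14.2 and 6.04 against 7.11, 12.2 and 5.03 tags. The H3K27me3 ratio of PD-L1 high over IFN-gamma was -0.66 in both of these sets.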

How the data were processed

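The deposited table holds 12 columns of signal per gene, 1 library each for 4 marks in 3 cell states, for 25507 windows under 25450 gene names. Bowtie2 2.4.2, HOMER, MACS2 2.2.7.1 and mm10 are named in the submitters' processing notes, without role or order. How windows were placed, duplicates handled and values scaled is not given in the sources used here. In each library 100% of values lay within 10% of a step of 0.5 tags once the deposited signal was multiplied by 6000 bp. The inferred value of 1 tag was 0.989 to 1.03, and 1.32 in H2A119Ub with IFN-gamma, and gene windows of a library summed to 1186030 to 8928680 tags. Levels carry Poisson and shares exact Clopper-Pearson 95% intervals on these tags.

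Ratios were log2 values with the 10th percentile of values above 0 added (in tags, H3K4me3 1.99, H3K27Ac 5.06, H3K27me3 2.03, H2A119Ub 8.18), centred on the median of windows at or above the mark's median mean level, which is the level filter. Intervals of ratios use tag counts without the added constant. A window was called at 2-fold. With 1 library per group no test was possible. RefSeq (GRCm38.p6) matched 25203 windows (98.8%). Python 3.11.15, numpy 2.4.6, pandas 2.3.3 and scipy 1.17.1 were used, and the scripts were tested on simulated data.

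The members, gene lists and marker lists were chosen with earlier results of these data known. Genes named are the 5 members with most H3K4me3, the 3 highest and 3 lowest ratios per mark and comparison, the windows next to each cut, a list of always-named genes, up to 4 members per list with the most H3K4me3, and 1 divergent pair. Predicted genes and clones were skipped, and some named items are not reported here. Further names in the text (Klf6, Cbx7, Hcfc1, Ppp4r3b) were added after their values were seen.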

Additional observations from a re-analysis of the deposited data

How the results depend on the processing

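No paired analysis was possible because each mark and state has 1 library and no replicate numbers are shared. Depth limits the Polycomb marks most: the members' median H3K27me3 was 8.13 tags in untreated cells, so a ratio there can turn on a few tags. A stricter rule (80th, 80th, 40th and 70th percentiles) kept 673 members, and percentiles over windows above 0 in all untreated libraries left the number of members within 1.5 times. Values below moved by more than their counting interval or by over 1.5 times, and each is given as the median log2 ratio, then members 2-fold higher or lower. The other 127 values did not move by that much. The sign of a median changed in 1 result: the H3K4me3 median of PD-L1 high over IFN-gamma passed from just below to just above 0 without centring and after quantile normalization. For H2A119Ub after IFN-gamma, 15 higher and 16 lower members became a majority of higher calls under both of these, with either other constant, above the level filter and under the stricter rule. The cause of each move was not tested beyond the construction of the alternative.

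Without centring, IFN-gamma over untreated gave the following medians: H3K4me3 0.32 (2 higher), H3K27Ac 0.30 (4 higher), H3K27me3 0.58 (42 lower), H2A119Ub 0.32 (65 higher, 2 lower). PD-L1 high over IFN-gamma gave 0.071, 0.0078, -0.91 (10 higher) and -0.33 (1 higher, 56 lower) in the same order. Quantile normalization gave 0.022, 0.0060, 0.56 (17 lower) and 0.15 (35 higher, 4 lower) for the first comparison. For the second it gave 0.011 for H3K4me3, -0.25 (54 higher, 253 lower) for H3K27me3 and -0.21 (1 higher) for H2A119Ub.

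With the constant doubled, H3K27me3 gave 0.29 (33 lower) and then -0.52 (13 higher), and H2A119Ub gave 4 higher and 3 lower, then -0.15 (1 higher, 5 lower). With the constant halved, H3K27me3 had 0.42 after IFN-gamma, and H2A119Ub had 42 higher after IFN-gamma and -0.21 (37 lower) in PD-L1 high cells. Among members above the level filter, which selects windows high in some state, H3K27me3 gave 0.84 (127 higher, 0 lower) and then -0.81 (0 higher, 113 lower), and H2A119Ub gave 0.15 (7 higher, 3 lower) and -0.22 (0 higher, 10 lower).

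Under the stricter rule H3K4me3 after IFN-gamma was 0.092, H3K27me3 gave 0.51 (174 higher, 21 lower) and then 10 higher and 225 lower, and H2A119Ub 8 higher and 5 lower, then 0 higher and 2 lower. With percentiles within chromosomes, added after seeing the data, 0 members were higher in H3K4me3 and 1 lower in H3K27Ac after IFN-gamma, and 7 higher in H2A119Ub in PD-L1 high cells. Keeping 1 window per run left 1449 members and lowered the members' shares of tags in untreated, IFN-gamma and PD-L1 high cells to 18.2%, 19.1% and 19.2% of H3K4me3, 14.2%, 15.2% and 15.8% of H3K27Ac, 0.743%, 1.07% and 0.463% of H3K27me3, and 4.77%, 5.34% and 4.51% of H2A119Ub.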

Other observations

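Some active windows held far more Polycomb mark than the members, up to 1883 H3K27me3 and 8636 H2A119Ub tags in untreated cells. The genes below are examples and not the highest. Cbx8, which encodes a chromodomain subunit of PRC1, had 1279, 2086 and 2304 H3K27me3 tags in untreated, IFN-gamma and PD-L1 high cells beside 646, 815 and 885 H3K4me3 tags. Kcnn1, a calcium-activated potassium channel gene, had 889, 1294 and 1554 H3K27me3 tags. In both, H3K27me3 was highest in PD-L1 high cells, unlike in their set. The median of the 3161 active windows with more Polycomb mark was lowest there, as was that of the members. For these 3161 windows it was 22.35, 31.41 and 14.08 H3K27me3 tags in untreated, IFN-gamma and PD-L1 high cells. Tap2, a subunit of the peptide transporter of antigen presentation, had 539, 414 and 341 H2A119Ub tags and 197, 118.5 and 61.4 H3K27me3 tags, with 748, 1160 and 1136 H3K4me3 tags. Of the 3161 active windows with more Polycomb mark, 966 passed the H3K27me3 cut alone, 341 the H2A119Ub cut alone and 1854 both. ETS letters stood in 23.7%, 18.3% and 17.9% of their promoters in that order, against 24.5% of members.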
